A study of Mus musculus with 18 samples.

Results

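The genes described here encode the respiratory chain and the ATP synthase, drawn from both genomes of the mouse. They are the protein-coding genes whose names begin with Nduf, Uqcr, Cox4 to Cox8 or Atp5, the 4 genes Sdha, Sdhb, Sdhc and Sdhd, and every protein-coding gene of the mitochondrial chromosome. The rule uses names and chromosomes and no measured value, and it gave 107 of the 54532 genes in the tables. Of these, 94 are nuclear and 13 are mitochondrial. The nuclear genes hold 36 of complex I, 8 assembly factors of complex I, 4 of complex II, 8 of complex III, 20 of complex IV and 18 of complex V. The mitochondrial genes hold 7 of complex I, 1 of complex III, 3 of complex IV and 2 of complex V.

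Complexes I to IV pass electrons from NADH and succinate to oxygen. All of them but complex II pump protons across the inner mitochondrial membrane, and complex V, the ATP synthase, uses the proton gradient to make ATP. Complexes I, III, IV and V are built from subunits of both genomes, while complex II is wholly nuclear. Nuclear subunits are transcribed gene by gene in the nucleus, whereas mitochondrial genes are transcribed as long polycistronic RNAs inside the organelle. Colonocytes draw much of their ATP from the oxidation of butyrate, a bacterial product, and depend on this chain.

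Expression was measured by sequencing of poly(A) RNA in 18 libraries of C57BL/6 mice. Colorectal tumours came from mice treated with azoxymethane (AOM, a carcinogen) and dextran sulfate sodium (DSS, an irritant of the colon epithelium). The tumour groups were Il1f5-/- (KO), Il1f5+/+ (WT), Il1f9-/- (KO) and Il1f9+/+ (WT) mice, with n = 2 each. Colitis colon came from the same 4 genotypes after 5 days of 2.5% DSS and 2 days of water, as a 0.5 cm piece of the distal colon, with n = 3 for each Il1f5 group and n = 2 for each Il1f9 group. Every mouse of both experiments had thus received DSS, and no untreated colon is among the libraries. Il1f5 encodes the antagonist of the IL-36 receptor and Il1f9 encodes IL-36 gamma, an agonist of the same receptor. Whole tissue was used, so that fewer cells of a type and less RNA per cell cannot be told apart in any result below. The sources give neither the age nor the sex of the mice.

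Library totals ran from 16621611 to 23776174 counts. Il1f9 had 0 to 2 counts in tumour Il1f9 KO libraries against 752 to 1652 in tumour Il1f9 WT libraries, and 1 to 9 counts in colitis Il1f9 KO libraries against 90 to 232 in colitis Il1f9 WT libraries. Il1f5 had 102 and 211 counts in the tumour libraries labelled Il1f5 KO and 36 to 45 counts in the colitis libraries labelled Il1f5 KO, against 0 counts in all WT libraries of that line. All libraries of the Il1f9 line, KO and WT, also had 0 counts of Il1f5. Counts of Il1f5 therefore run against the labels of the Il1f5 line, and every direction in that line rests on the labels. Why the libraries labelled Il1f5 KO held counts of Il1f5 was not tested. Markers of colon epithelium were high in all libraries, with 8 of 8 detected and a summed level of 8893 to 16083 CPM in tumours and 8495 to 12064 CPM in colitis. CPM is the count of a gene scaled to an equal total in each library, and it serves to compare libraries, not genes of unequal length.

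The 13 mitochondrial genes took a larger share of the counts than the 94 nuclear genes in every library. Between genes, levels were compared per length with the authors' FPKM (fragments per kilobase of gene length, scaled to sequencing depth). The mean FPKM over 18 libraries had a median of 874 over the mitochondrial genes and of 79.5 over the nuclear genes. Among mitochondrial genes it spanned 10.4 FPKM for mt-Atp8, a small subunit of complex V, to 9658 FPKM for mt-Co1, the catalytic subunit of complex IV. Next to mt-Co1 came mt-Cytb, the cytochrome b of complex III, with a mean of 3600 FPKM, and mt-Nd1, a membrane subunit of complex I, with 3227 FPKM. Counts of mt-Co1 made up 42.4 to 59.1% of all counts of the mitochondrial genes. The highest nuclear means were 835 FPKM for Cox6a1 and 773 FPKM for Cox8a, which are small subunits of complex IV, then 437 FPKM for Cox4i1, its regulatory subunit, and 422 FPKM for Atp5a1, the alpha subunit of the ATP synthase. Among the tissue isoforms of complex IV, Cox7a1, of heart and muscle, had a mean of 24.8 FPKM and Cox6b2, of testis, 5.75 FPKM. The lowest were close to no counts. Cox8c had 0 counts in all 18 libraries, which allows up to 3 counts in each. Cox7b2, a testis isoform, had 3 counts in all, and Cox6a2, a heart and muscle isoform, had 30 counts in all.

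The nuclear and the mitochondrial genes did not keep a fixed ratio. Nuclear genes took 2.18 and 2.15% of the counts in colitis Il1f9 KO libraries, against 1.62 and 1.38% in colitis Il1f9 WT libraries. Mitochondrial genes took 2.80 and 2.74% of the counts in colitis Il1f9 KO libraries, against 2.97 and 2.79% in colitis Il1f9 WT libraries. The nuclear shares of these KO libraries were the highest of all 18, while their mitochondrial shares lay within the range of the other colitis libraries, 2.74 to 3.36%. The ratio of mitochondrial to nuclear counts was 1.29 and 1.27 in colitis Il1f9 KO libraries, against 1.83 and 2.01 in colitis Il1f9 WT libraries.

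In the Il1f5 line of colitis the ratio was 1.95, 2.15 and 1.77 in KO libraries, against 1.73, 1.58 and 1.71 in WT libraries, so that every KO library was above every WT library by a small margin. In tumours of the Il1f5 line the ratio was 1.63 and 1.61 in KO libraries, against 2.01 and 1.90 in WT libraries. Tumours of the Il1f9 line had ratios of 1.84 and 1.39 in KO libraries, against 1.20 and 2.11 in WT libraries. There the WT libraries lay on either side of the KO libraries. The ratio averaged 1.71 ± 0.31 in tumours (SD, n = 8) and 1.73 ± 0.29 in colitis (SD, n = 10), a difference within the spread of either tissue. Leaving out mt-Co1 and mt-Cytb, the pair of mitochondrial genes with the most counts, gave a difference of the mean log2 ratio (KO minus WT) of -0.03 in the tumour Il1f5 line, against -0.27 with them.

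**Figure D1:**
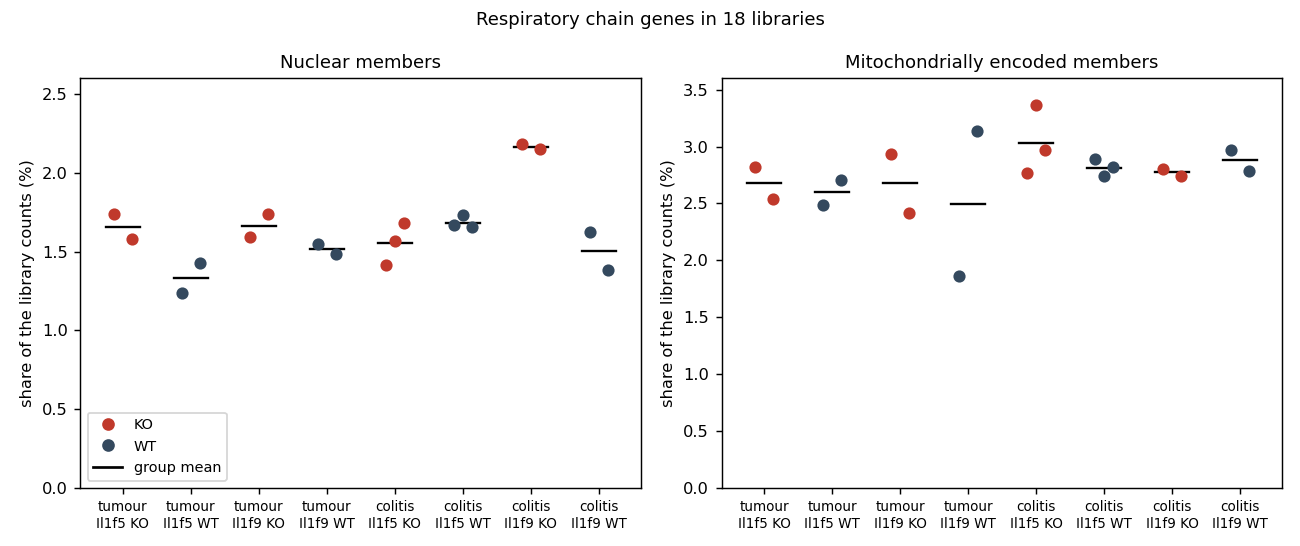
Share of each library's counts taken by the 94 nuclear (left) and the 13 mitochondrially encoded (right) respiratory chain genes, in percent, with 1 point per library, KO in red and WT in dark blue, and a line at each group mean. The 2 colitis Il1f9 KO libraries stand above the other 16 in the left panel, at 2.18 and 2.15%, and among the other colitis libraries in the right panel.

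Several mitochondrial genes have copies in the nuclear genome, and reads that fit both places equally cannot be assigned. In the GENCODE M21 annotation (GRCm38), 8 of the 13 mitochondrial and 14 of the 94 nuclear genes have another gene that is at least 95% identical over at least 50% of the transcript searched. For each nuclear gene this was a short protein-coding transcript, of 722 bases for Sdha and 332 bases for Ndufs1, and longer transcripts were not searched. A single stretch of chromosome 1, chr1:24611535-24616197 on the minus strand, holds 7 annotated copies side by side. Gm28661, Gm10925, Gm28437 and Gm10222 are 100% identical to mt-Co2, mt-Atp6, mt-Co3 and mt-Nd4l over at least 99.0% of each gene. Gm28439 is 100% identical to 63.6% of mt-Nd4, Gm28438 is 99.71% identical to mt-Nd3, and Gm29216 is 99.79% identical to mt-Co1 over 483 bases, 31.3% of that gene. The first 60 bases of 2 pairs, from the GENCODE M21 transcripts on GRCm38, show why counts of these genes are uncertain. The capital marks the base at which mt-Nd3 and its copy differ in this window, T3C counted from the first base of mt-Nd3, and the mt-Co2 pair has no difference.
mt-Co2 (chrM:7013-7696, plus strand, bases 1 to 60): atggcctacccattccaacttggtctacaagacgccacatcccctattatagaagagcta
Gm28661 (chr1:24614885-24615565, minus strand, bases 1 to 60): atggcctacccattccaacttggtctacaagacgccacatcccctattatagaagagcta
mt-Nd3 (chrM:9459-9806, plus strand, bases 1 to 60): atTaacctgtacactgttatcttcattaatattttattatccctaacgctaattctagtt
Gm28438 (chr1:24612775-24613119, minus strand, bases 1 to 60): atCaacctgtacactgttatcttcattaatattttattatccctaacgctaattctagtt
Mean FPKM was 196 for mt-Co2, 120 for mt-Atp6, 119 for mt-Co3 and 31.6 for mt-Nd4l, which have an identical copy over nearly their whole length. The lowest mean among the mitochondrial genes, 10.4 FPKM, was that of mt-Atp8, whose closest annotated copy lies elsewhere on chromosome 1 and is 81.44% identical. Only annotated transcripts were searched, so the bases between the 7 annotated copies were not read for mt-Atp8 or any other gene. The copy Gm28661 itself had a mean of 1134 counts per library, against 2553 for mt-Co2. What part of the transcripts of mt-Co2, mt-Atp6, mt-Co3, mt-Nd4l and mt-Nd3 was counted at all was not tested, and their values below are given as uncertain.

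Colitis in the Il1f9 line separated the 2 genomes. Of the 90 nuclear genes with enough counts for the test, 78 rose in Il1f9 KO colon and none fell, by the quasi-likelihood test of edgeR at an adjusted p under 0.05. Over all 18299 genes tested, 9.59% rose and 9.98% fell. The median log2 fold change was 0.70 over the nuclear genes and -0.01 over all genes. None of the 13 mitochondrial genes passed, and their median was 0.05. At an unadjusted p under 0.05 the mitochondrial genes held 2, beside 34.0% of all genes, and DESeq2 called 1 higher and 1 lower, beside 21.7% of all genes. For 84 of the 90 nuclear genes both KO libraries were above both WT libraries, against 24.0% of all genes.

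Complex I, the NADH dehydrogenase, had 34 of 36 nuclear genes raised, with a median of 0.72, and in all 36 both KO libraries were above both WT libraries. Ndufa5, an accessory subunit, had 169 and 152 CPM in KO libraries against 92.0 and 81.3 CPM in WT libraries (log2 fold change 0.99 ± 0.16 SE, edgeR adjusted p = 0.00206). Ndufb4, an accessory subunit of the membrane arm, had 67.6 and 78.5 CPM in KO libraries against 42.0 and 38.3 CPM in WT libraries (0.96 ± 0.14, adjusted p = 0.00131). Ndufb8, in the same arm, had 167 and 155 CPM in KO libraries against 113 and 101 CPM in WT libraries (0.69 ± 0.13, adjusted p = 0.00444). In these genes the lower KO library was above the higher WT library by a wide margin. The 2 that did not pass were Ndufa10 (0.32, adjusted p = 0.101) and Ndufb2 (0.25, adjusted p = 0.309). Of the 8 assembly factors, which help to build complex I and are not part of it, 6 rose with a median of 0.66.

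All 4 genes of complex II, the succinate dehydrogenase, passed the test. Its catalytic subunit Sdha rose least, with 583 and 584 CPM in KO libraries against 500.5 and 456 CPM in WT libraries (log2 fold change 0.39 ± 0.12 SE, edgeR adjusted p = 0.0404). The iron-sulfur subunit Sdhb had 213 and 217 CPM in KO libraries against 165 and 132 CPM in WT libraries (0.63 ± 0.18, adjusted p = 0.0347). The membrane anchors Sdhc and Sdhd rose by 0.64 and 0.54. All 8 nuclear genes of complex III, the cytochrome bc1 complex, rose as well. Uqcr10, a small subunit, had 244 and 261 CPM in KO libraries against 146 and 135 CPM in WT libraries (0.95 ± 0.12, adjusted p = 0.000735). Uqcrc2, a core protein, had 295 and 315 CPM in KO libraries against 232 and 199 CPM in WT libraries (0.60 ± 0.16, adjusted p = 0.0212).

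Complex IV, the cytochrome c oxidase, had 12 of 17 tested nuclear genes raised. Cox7a1, the heart and muscle isoform of subunit VIIa, showed the largest fold change among the nuclear genes, with 30.2 and 29.3 CPM in KO libraries against 14.8 and 11.6 CPM in WT libraries (log2 fold change 1.27 ± 0.29 SE, edgeR adjusted p = 0.0133). Cox4i1 had 1112 and 973 CPM in KO libraries against 755 and 621 CPM in WT libraries (0.70 ± 0.16, adjusted p = 0.0106). The 5 that did not pass were Cox7a2l, a factor of supercomplexes, and the sparse isoform genes Cox4i2, Cox6b2, Cox8b and Ndufa4l2. Ndufa4l2, a hypoxia-induced paralog of Ndufa4, was the single nuclear gene with a fold change below 0, at -0.58 (adjusted p = 0.249). Complex V had 14 of 17 tested genes raised. Atp5k, its subunit e, had 136 and 138 CPM in KO libraries against 86.3 and 63.3 CPM in WT libraries (0.96 ± 0.15, adjusted p = 0.00187). Atp5a1 had 1715 and 1707 CPM in KO libraries against 1368 and 1196 CPM in WT libraries (0.52 ± 0.14, adjusted p = 0.0234).

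None of the mitochondrial partners of these subunits passed the edgeR test. mt-Co1 had 15554 and 15731 CPM in KO libraries against 15813 and 15203 CPM in WT libraries (log2 fold change 0.12 ± 0.16 SE, edgeR adjusted p = 0.668). mt-Cytb had 3547 and 3335 CPM in KO libraries against 4554 and 3917 CPM in WT libraries (-0.20 ± 0.16, adjusted p = 0.410). mt-Nd1 had 3500 and 3305 CPM in KO libraries against 3016 and 2789 CPM in WT libraries (0.33 ± 0.14, adjusted p = 0.118). mt-Nd5, another membrane subunit of complex I, lay the other way, with 1279 and 1402 CPM in KO libraries against 1852 and 1888 CPM in WT libraries (-0.38 ± 0.13, adjusted p = 0.0617). DESeq2 called this pair, mt-Nd1 higher (adjusted p = 0.0412) and mt-Nd5 lower (adjusted p = 0.0147).

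**Figure D2:**
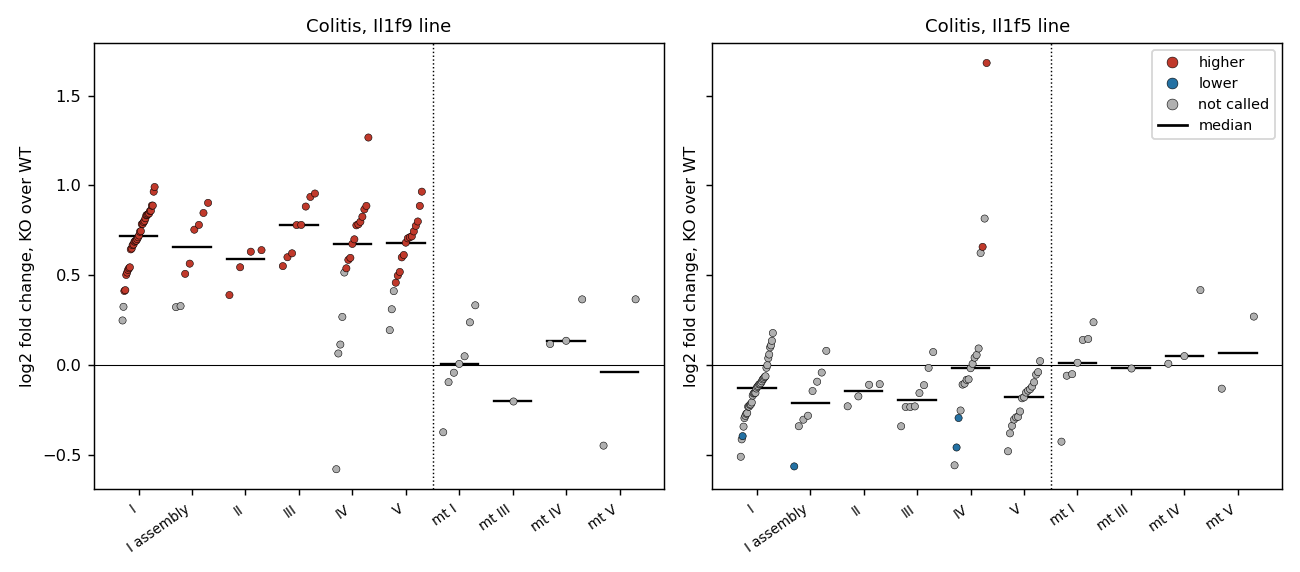
Log2 fold changes (KO over WT) of the 90 nuclear and 13 mitochondrial genes tested in colitis, by complex, for the Il1f9 line (left) and the Il1f5 line (right), with 1 point per gene coloured by its call at an adjusted p under 0.05, a line at each median and a dotted line between the genomes. In the Il1f9 line the nuclear medians lie between 0.59 and 0.78 and the mitochondrial genes lie around 0, while in the Il1f5 line the nuclear medians lie between -0.21 and -0.02.

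Leaving out 1 library at a time left 39 to 77 of the nuclear genes called in this comparison. The count was 45 without KO replicate 1, 46 without KO replicate 2 and 39 without WT replicate 2. The difference between the median of the mitochondrial and of the nuclear genes was -0.65, and it stayed between -0.79 and -0.45 in these fits. Markers of several cell types moved in the same comparison. Epithelial markers summed to 11602 to 12064 CPM in KO libraries against 8495 to 10098 CPM in WT libraries, with 8 of 8 detected. Of these sums Krt8 gave 5301 and 5597 CPM in KO libraries against 4262 and 3511 CPM in WT libraries. Krt18, Krt20, Epcam, Cdx1 and Cdx2 were also higher without overlap. Cdh1 (954 and 1017 against 1034 and 1012 CPM) and Vil1 (731 and 794 against 870 and 721 CPM) overlapped. Smooth muscle markers (6 of 6) summed to 3865 to 4245 CPM in KO libraries against 1363 to 2670 CPM in WT libraries. Neutrophil markers (5 of 5) summed to 27.7 to 78.0 CPM in KO libraries against 651 to 1145 CPM in WT libraries, and fibroblast markers (6 of 6) to 1193 to 1633 CPM in KO libraries against 2415 to 3740 CPM in WT libraries. Macrophage markers (5 of 5) summed to 97.1 to 121 CPM in KO libraries against 286 to 405 CPM in WT libraries, and endothelial markers (5 of 5) to 81.7 to 94.1 CPM in KO libraries against 151 to 219 CPM in WT libraries. Markers of B and plasma cells (6 of 6) summed to 3884 to 4065 CPM in KO libraries against 1126 to 2338 CPM in WT libraries. Igha gave most of it, with 3196 and 3286 CPM in KO libraries against 976 and 1994 CPM in WT libraries. Jchain and Mzb1 were also higher without overlap, while Cd79a, Cd79b and Ms4a1 overlapped. None of the marker sums given here overlapped between the groups, and the part of these cells in the result was not tested.

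Gene length moved with it too. Protein-coding genes outside the set had a median log2 fold change of 0.40 where the gene model was under 1000 bases, 0.26 from 1000 to 2000 bases, 0.07 from 2000 to 4000 bases and -0.09 at 4000 bases or more. The nuclear respiratory chain genes had medians of 0.79, 0.71, 0.63 and 0.55 in the same classes. In the shortest class 20 of 22 of them rose, beside 111 of 378 other genes, and in the longest class 9 of 11, beside 429 of 8124. The part of length in the result was not tested, and the nuclear medians were above those of other genes in each of the 4 classes.

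Several lists of nuclear genes that serve mitochondria were read beside the 9.59% of all genes that rose. Of the proteins of the mitochondrial ribosome, which translates the 13 mitochondrial messages, 60 of 77 rose and none fell, with a median log2 fold change of 0.55. Mrpl28 averaged 77.8 ± 2.0 CPM in KO libraries and 43.6 ± 1.7 CPM in WT libraries (SD, n = 2 each, edgeR adjusted p = 0.000737). Of 19 outer membrane and import genes 12 rose, among them the channel gene Vdac3 with 318 ± 21 CPM in KO libraries and 188 ± 7 CPM in WT libraries (adjusted p = 0.000651). Of 17 genes of the citrate cycle 10 rose, among them Cs, citrate synthase (0.57, adjusted p = 0.00589). Of 38 assembly factors and further subunits of complexes II to V 10 rose, and of 11 electron carrier genes 4 rose. Proteins of the cytosolic ribosome, a list added for comparison, held 35 of 82 that rose and none that fell, with a median of 0.45. Of 19 genes that transcribe and maintain mitochondrial DNA 3 rose and 1 fell, with a median of 0.09. Tfam, which packages mitochondrial DNA and starts its transcription, was among the 3 (0.48, adjusted p = 0.0140). Of 11 regulators of mitochondrial biogenesis the coactivator gene Ppargc1a rose (0.72, adjusted p = 0.0177) and no other passed, a share near that of all genes.

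The promoters of the nuclear genes were read for the letters of 3 factors known to drive respiratory chain genes, since the nuclear genes moved together here. RefSeq (GRCm38.p6) gave windows of 250 bases before and 50 bases after the start for 76 of the 94 nuclear genes, 81 windows in all. The NRF1 letters, GCGCA and GCGC with any base between them, stood on either strand in 24.7% of these windows, beside 6.38% of all 21263 promoter windows. The GABPA letters CCGGAAG stood in 22.2%, beside 11.6% of all windows, and the YY1 letters AANATGGCG in 13.6%, beside 3.12%. At least 1 of the 3 stood in 51.9% of the members' windows, beside 18.8% of all windows. A match is a description of the letters and shows no binding. NRF1 letters were held by 7 of 32 complex I genes with a window, 6 of 15 complex V genes and 1 of 14 complex IV genes. The 3 windows shown are those of Ndufb4 and Atp5k, which are described above, and of Ndufs6, an accessory subunit of complex I with a log2 fold change of 0.89 (edgeR adjusted p = 0.00325), because each holds NRF1 letters and the last pair also GABPA or YY1 letters. Capitals mark the matches, none of which overlaps another, on the gene's own strand or as the reverse complement.
Ndufb4 (chr16:37654319-37654618, minus strand, 3 NRF1 matches): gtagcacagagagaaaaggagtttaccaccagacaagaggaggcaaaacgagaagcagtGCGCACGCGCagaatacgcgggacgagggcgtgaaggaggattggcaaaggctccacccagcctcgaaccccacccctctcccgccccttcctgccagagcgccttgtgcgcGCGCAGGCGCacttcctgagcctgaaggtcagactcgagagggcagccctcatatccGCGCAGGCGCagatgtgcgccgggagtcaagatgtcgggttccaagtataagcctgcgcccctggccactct
Atp5k (chr5:108434350-108434649, minus strand, NRF1 then GABPA): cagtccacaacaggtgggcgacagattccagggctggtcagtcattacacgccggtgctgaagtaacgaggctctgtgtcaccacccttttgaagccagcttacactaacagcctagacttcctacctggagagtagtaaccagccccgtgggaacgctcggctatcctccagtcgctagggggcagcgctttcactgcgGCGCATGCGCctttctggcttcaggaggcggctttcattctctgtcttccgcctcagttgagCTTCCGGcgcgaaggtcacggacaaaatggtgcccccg
Ndufs6 (chr13:73328433-73328732, minus strand, NRF1 then YY1): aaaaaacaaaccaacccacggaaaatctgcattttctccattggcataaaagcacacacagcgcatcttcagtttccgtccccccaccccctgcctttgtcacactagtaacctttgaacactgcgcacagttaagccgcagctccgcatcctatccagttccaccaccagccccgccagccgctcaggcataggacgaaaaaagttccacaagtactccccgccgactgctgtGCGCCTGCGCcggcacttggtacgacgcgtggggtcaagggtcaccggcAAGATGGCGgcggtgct
The Ndufb4 window holds the NRF1 letters at 3 places, and in Ndufs6 the YY1 letters stand near the end of the window, after the annotated start.

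In colitis of the Il1f5 line few members passed. Of 90 nuclear genes, 2 rose and 4 fell in the libraries labelled Il1f5 KO, while 13.7% of all genes rose and 11.0% fell. The nuclear median log2 fold change was -0.13 and that of the 13 mitochondrial genes was 0.01, with none of them called by edgeR. An unadjusted p under 0.05 was found for 1 of them, beside 39.0% of all genes, and DESeq2 called none, beside 26.9% of all genes. The 4 that fell were the assembly factor Ndufaf4, the complex IV genes Ndufa4 and Cox7a2, and Ndufs8, a catalytic iron-sulfur subunit of complex I. Ndufaf4 had 24.9, 24.7 and 32.3 CPM in KO libraries against 44.4, 35.4 and 36.6 CPM in WT libraries (log2 fold change -0.57 ± 0.14 SE, adjusted p = 0.0137). Ndufa4 had 63.7, 77.8 and 80.7 CPM in KO libraries against 98.3, 97.7 and 97.5 CPM in WT libraries (-0.46 ± 0.14, adjusted p = 0.0330). In both genes the groups did not overlap. Ndufs8 fell by 0.40 (adjusted p = 0.0458) and Cox7a2 by 0.30 (adjusted p = 0.0262).

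The 2 that rose are isoform genes of complex IV with low counts. Cox6b2, known from testis, had 10.7, 7.37 and 8.14 CPM in KO libraries against 4.34, 6.68 and 4.92 CPM in WT libraries (log2 fold change 0.66 ± 0.20 SE, edgeR adjusted p = 0.0352). Cox8b, the muscle and brown fat isoform, had 12, 11 and 14 counts in KO libraries against 2, 2 and 8 counts in WT libraries (1.68 ± 0.49, adjusted p = 0.0300). Marker sums of several cell types differed without overlap in the same comparison. Epithelial markers (8 of 8) summed to 9056 to 10232 CPM in KO libraries against 10720.0 to 11251 CPM in WT libraries. Smooth muscle markers (6 of 6) summed to 3114 to 4797 CPM in KO libraries against 1881 to 2105 CPM in WT libraries, and fibroblast markers (6 of 6) to 2731 to 3087 CPM in KO libraries against 1694 to 1860 CPM in WT libraries. Endothelial markers (5 of 5) summed to 179 to 244 CPM in KO libraries against 105 to 110 CPM in WT libraries, and those of B and plasma cells (6 of 6) to 2310 to 3574 CPM in KO libraries against 1099 to 1591 CPM in WT libraries. Of the B and plasma cell sums Igha gave 1994 to 3042 CPM in KO libraries against 899 to 1299 CPM in WT libraries, while Cd79a and Ms4a1 overlapped. Beside Cox8b, skeletal muscle markers (9 of 9 detected over all 18 libraries) summed to 20.0 to 20.6 CPM in KO libraries against 14.3 to 15.5 CPM in WT libraries. Among them Acta1 overlapped, with 6.17, 9.36 and 9.83 CPM in KO libraries against 9.31, 9.51 and 7.87 CPM in WT libraries. Adipocyte markers (7 of 7) overlapped at 96.4 to 231 CPM in KO libraries against 61.5 to 112 CPM in WT libraries. The muscle creatine kinase gene Ckm had 10.5, 7.52 and 8.36 CPM in KO libraries against 4.34, 3.61 and 5.22 CPM in WT libraries. Ucp1, of brown fat, was at 0 in 5 of these 6 libraries, and the muscle myosin gene Myh4 in all 6. The part of these cells in the result was not tested. Every call of this comparison depended on the libraries used, since the count of nuclear genes ran from 0 to 20 when 1 library was left out. It was 0 without KO replicate 1 or without WT replicate 1, 1 without KO replicate 2, 2 without WT replicate 2 and 20 without KO replicate 3.

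A direct test of the difference between the lines gave 78 of 90 nuclear genes with a higher KO effect in the Il1f9 line than in the Il1f5 line of colitis, and none with a lower effect. Of all genes, 12.0% were higher and 12.8% lower in this test. The median difference was 0.82 log2 units over the nuclear genes, -0.05 over the mitochondrial genes and -0.03 over all genes. Uqcr10 had the smallest p, with a difference of 1.07 ± 0.16 SE (edgeR adjusted p = 0.00172). Of the mitochondrial genes mt-Nd5 alone passed, with a difference of -0.51 ± 0.17 (adjusted p = 0.0431), and it no longer passed in 8 of the 10 fits that left out a library. Because counts of Il1f5 run against its labels, the test was repeated with the Il1f5 KO and WT labels turned. Then 37 of 90 nuclear genes were higher and none lower, beside 8.75% of all genes higher and 9.75% lower. The median difference was then 0.55 log2 units over the nuclear genes and 0.14 over the mitochondrial genes, none of which passed, mt-Nd5 included. Uqcr10 had 0.84 ± 0.16 with the labels turned (edgeR adjusted p = 0.00547). With the labels as given, the nuclear count was 50 without Il1f9 KO replicate 2 and 51 without Il1f9 WT replicate 2.

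In tumours no respiratory chain gene was called by edgeR in either line. In the Il1f5 line 0 of 89 nuclear and 0 of 13 mitochondrial genes passed, where 0.0280% of all genes did. At an unadjusted p under 0.05 there were 55 nuclear genes, all higher in the libraries labelled Il1f5 KO, and 2 mitochondrial genes, beside 23.0% of all genes in either direction. DESeq2 called 22 nuclear genes higher and none lower, beside 7.16% of all genes in either direction, and no mitochondrial gene. The median log2 fold change was 0.46 over the nuclear genes, 0.43 over the mitochondrial genes and 0.01 over all genes. Both KO libraries were above both WT libraries in 63 of 89 nuclear genes, beside 22.3% of all genes.

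Atp5k had 101 and 83.9 CPM in tumour Il1f5 KO libraries against 41.9 and 56.1 CPM in tumour Il1f5 WT libraries (log2 fold change 1.09 ± 0.23 SE, edgeR adjusted p = 0.0792, DESeq2 adjusted p = 0.00208). Cox6a1 had 648 and 520 CPM in KO libraries against 336 and 405 CPM in WT libraries (0.83 ± 0.20, adjusted p = 0.0811, DESeq2 adjusted p = 0.00654). Sdha stood apart within complex II, with 187 and 237 CPM in KO libraries against 252 and 286 CPM in WT libraries (-0.18 ± 0.21, adjusted p = 0.635). mt-Nd4, a complex I subunit, had 2515 and 2061 CPM in KO libraries against 1538 and 1725 CPM in WT libraries (0.66 ± 0.27, adjusted p = 0.189). In each of these genes the groups did not overlap, though none passed in edgeR. Ribosomal proteins of the cytosol had a median of 0.64 in the same comparison, with 64 of 82 at an unadjusted p under 0.05 and none called. Other protein-coding genes had a median of 0.36 under 1000 bases and -0.07 at 4000 bases or more, and the nuclear members had 0.47 and 0.53 in these classes. Neutrophil markers (5 of 5) summed to 315 to 391 CPM in KO libraries against 211 to 219 CPM in WT libraries, but they did not move together. S100a8, S100a9 and Retnlg were higher in KO libraries and Cxcr2 overlapped. Csf3r was lower, with 19.7 and 28.4 CPM in KO libraries against 52.9 and 39.1 CPM in WT libraries. Fibroblast markers (6 of 6) summed to 919 to 961 CPM in KO libraries against 1176 to 1495 CPM in WT libraries, while epithelial markers overlapped. The part of length and of these cells in the values was not tested.

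In the Il1f9 line of tumours 0 of 89 nuclear and 0 of 13 mitochondrial genes passed, beside 0.0168% of all genes, and DESeq2 also called none, beside 0.918%. An unadjusted p under 0.05 was found for 2 nuclear genes and 1 mitochondrial gene, beside 8.70% of all genes. The medians were 0.11 and -0.02 log2 units. Mitochondrial genes took 2.94 and 2.41% of the counts in KO libraries, against 1.86% in WT replicate 1 and 3.14% in WT replicate 2, so that the WT libraries lay on either side of the KO libraries. mt-Co3, a core subunit of complex IV, was the extreme case, with 1408 and 1169 counts in KO libraries against 751 and 7374 counts in WT libraries (log2 fold change -1.61 ± 0.98 SE, edgeR adjusted p = 0.699). Its chromosome 1 copy is identical, so this value is uncertain as well. Without WT replicate 1 the fold change of mt-Co3 was -2.45 with an adjusted p of 0.0258, which rests on WT replicate 2 alone, and without WT replicate 2 it was 0.72 (adjusted p = 0.692). The test of the difference between the lines called no respiratory chain gene in tumours, beside 0.0784% of all genes by edgeR. An unadjusted p under 0.05 was found for 13 nuclear genes and no mitochondrial gene, beside 17.2% of all genes, and DESeq2 called 1 gene, Atp5k, beside 3.27%.

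**Figure D3:**
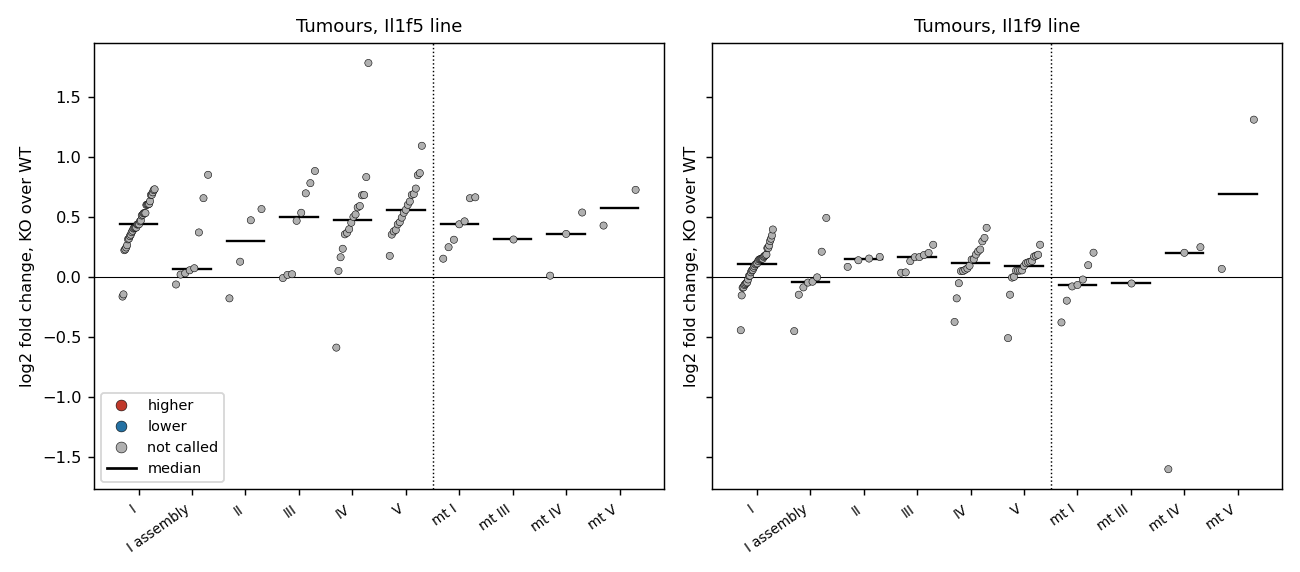
Log2 fold changes (KO over WT) of the 89 nuclear and 13 mitochondrial genes tested in tumours, by complex, for the Il1f5 line (left) and the Il1f9 line (right), with 1 point per gene, a line at each median and a dotted line between the genomes. No gene passed in either line, and the medians of both genomes lie above 0 in the Il1f5 line, at 0.46 and 0.43, and near 0 in the Il1f9 line.

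In tumours against colitis colon the nuclear respiratory chain genes went both ways, at shares near those of all genes. All 18 libraries entered this fit, and tissue cannot be told apart from any difference in handling between the 2 experiments. Of 90 nuclear genes 27 rose and 35 fell in tumours, close to the 36.5% and 36.1% of all genes that did. The nuclear median log2 fold change was -0.07. Of 13 mitochondrial genes 1 rose and 5 fell, with a median of -0.21. Complex I had 11 genes that rose and 18 that fell of 36, complex IV 5 and 8 of 17, and complex V 6 and 4 of 17. Complex II had none that rose and 3 that fell of 4.

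Ndufa4, once placed in complex I and now in complex IV, rose most, with 184, 279 and 454 CPM in tumours against 63.7, 97.6 and 135 CPM in colitis as the lowest, median and highest library (log2 fold change 1.59 ± 0.09 SE, edgeR adjusted p = 2.55e-10). Its tumour libraries were all above its colitis libraries. Atp5l, the subunit g of the ATP synthase, followed with 133, 243 and 348 CPM in tumours against 84.4, 102 and 154 CPM in colitis (1.14 ± 0.07, adjusted p = 1.12e-09). Copies of Atp5l, 9 in number, are at least 95% identical over at least 50% of the transcript searched, so its level is uncertain. Ndufb4 had 65.6, 103 and 157 CPM in tumours against 38.3, 48.2 and 78.5 CPM in colitis (1.05 ± 0.07, adjusted p = 2.49e-09). Ndufc2, of the membrane arm of complex I, rose by 0.91 and Atp5e, the epsilon subunit of the ATP synthase, by 0.82. Their ranges overlapped between the tissues.

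Sdha fell most among the nuclear genes with a mean of at least 1 on the log2 CPM scale, with 161, 212 and 286 CPM in tumours against 456, 528 and 584 CPM in colitis (log2 fold change -1.25 ± 0.08 SE, edgeR adjusted p = 7.89e-10). No tumour library reached the lowest colitis library. Its partners changed less, since Sdhb fell by 0.34 and Sdhc by 0.31 while Sdhd had 0.02 (adjusted p = 0.826). Ndufb10, of the membrane arm of complex I, had 55.7, 72.9 and 101 CPM in tumours against 132, 155 and 239 CPM in colitis (-1.08 ± 0.08, adjusted p = 9.49e-09). Ndufa5 had 44.2, 55.4 and 66.3 CPM in tumours against 81.3, 111 and 169 CPM in colitis (-0.96 ± 0.09, adjusted p = 1.43e-07). Neither gene overlapped between the tissues. Ndufb10, Ndufa5 and Ndufb4 belong to the same complex and lay on both sides of 0. Cox6b2 fell by 0.98 and Cox6a1 by 0.76. Below the expression limit for naming, the muscle isoform Cox8b had 0 to 4 counts in tumours against 2 to 14 counts in colitis (-2.50 ± 0.46, adjusted p = 0.000166).

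Of the 5 mitochondrial genes that fell, mt-Co2, mt-Atp6 and mt-Nd4l have an identical nuclear copy, while mt-Nd6 and mt-Atp8 have no annotated copy in the chromosome 1 stretch. Whether mt-Nd6 or mt-Atp8 has an unannotated copy there was not tested, so their values may be uncertain too. mt-Cytb, without an annotated copy there, rose, with 3143, 4667 and 5418 CPM in tumours against 3335, 3707 and 4554 CPM in colitis (log2 fold change 0.30 ± 0.10 SE, edgeR adjusted p = 0.0117). mt-Co1 had 9932, 13392 and 16294 CPM in tumours against 15164, 15772 and 19035 CPM in colitis (-0.21 ± 0.09, adjusted p = 0.0526). DESeq2 called all 3 mitochondrial genes of complex IV lower in tumours, mt-Co1 included. In all it called 8 of the 13 mitochondrial genes lower and 1 higher, where edgeR called 36.1% and 36.5% of all genes. mt-Co2, the subunit that takes electrons from cytochrome c, had 41.5, 53.4 and 82.6 CPM in tumours against 154, 188 and 268 CPM in colitis (-1.70 ± 0.13, adjusted p = 1.35e-08). Its groups did not overlap, and neither did those of mt-Nd4l, a small complex I subunit, with 3.32, 4.10 and 5.47 CPM in tumours against 8.36, 12.9 and 21.1 CPM in colitis (-1.59, adjusted p = 1.17e-07). mt-Atp6, the proton channel subunit of the ATP synthase, fell by 1.37 (adjusted p = 4.6e-06) and mt-Nd6 by 0.26 (adjusted p = 0.0405). mt-Atp8 had low levels, 0.114 to 1.83 CPM in tumours against 1.42 to 7.57 CPM in colitis, and fell by 2.85 (adjusted p = 2.29e-05). Without tumour Il1f9 WT replicate 2, 10 mitochondrial genes passed instead of 6.

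Of the chromosome 1 copies some were lower in tumours and others overlapped. Gm28661 had 23.8, 32.3 and 43.0 CPM in tumours against 63.5, 78.7 and 106 CPM in colitis as the lowest, median and highest library, beside mt-Co2. Gm10222 had a median of 2.75 CPM in tumours against 6.68 CPM in colitis, beside mt-Nd4l. Gm29216, which matches part of mt-Co1, had a median of 17.0 CPM in tumours against 59.4 CPM in colitis, a wider gap than mt-Co1 itself with 13392 CPM in tumours against 15772 CPM in colitis. Gm28439 had a median of 7.48 CPM in tumours against 17.5 CPM in colitis, while its match mt-Nd4 had 1631 CPM in tumours against 1735 CPM in colitis and was not called. Gm28438 spanned 1.73 to 10.6 CPM in tumours and 4.50 to 8.11 CPM in colitis. Whether the counts of mt-Co2, mt-Atp6 and mt-Nd4l and of their copies come from 1 source was not tested.

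**Figure D4:**
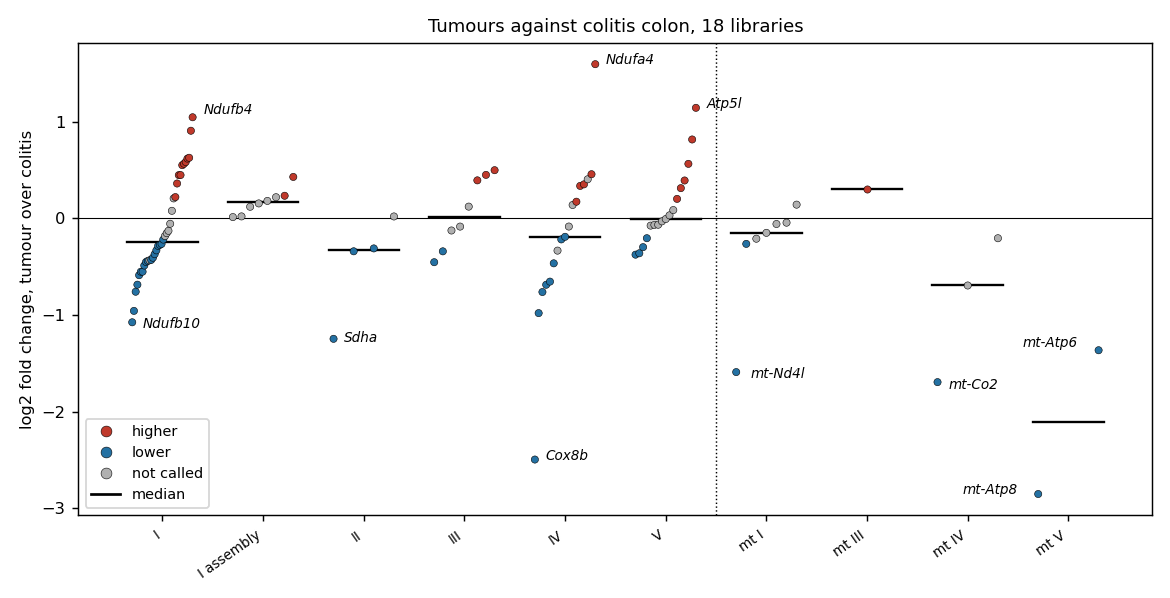
Log2 fold changes (tumour over colitis) of the 90 nuclear and 13 mitochondrial genes tested over 18 libraries, by complex, with 1 point per gene coloured by its call at an adjusted p under 0.05, a line at each median and a dotted line between the genomes. Points of 1 complex spread to both sides of 0, from Ndufb4 at 1.05 to Ndufb10 at -1.08 in complex I, and mt-Atp8, mt-Co2, mt-Nd4l and mt-Atp6 lie lowest among the mitochondrial genes.

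**Figure D5:**
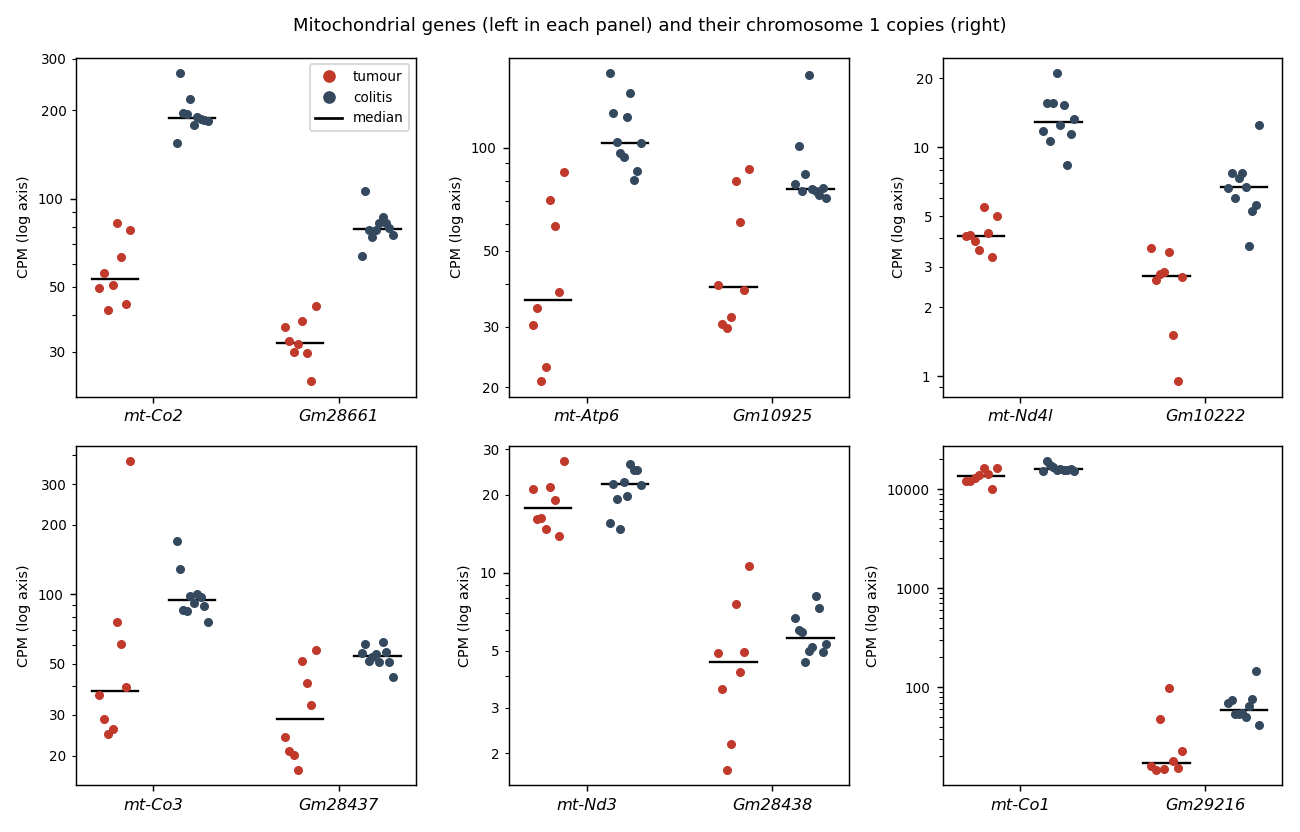
CPM on a log axis of 6 mitochondrial genes (left in each panel) and of their copies on chromosome 1 (right), with 1 point per library, tumours in red and colitis in dark blue, and a line at each median. mt-Co2 and Gm28661 are both lower in all tumour libraries than in any colitis library. mt-Co1 overlaps, with 9932 to 16294 CPM in tumours against 15164 to 19035 CPM in colitis.

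Of all genes tested in the same comparison, 36.5% rose and 36.1% fell. Of 77 mitochondrial ribosome genes 50 rose and 9 fell, with a median log2 fold change of 0.29, and of 82 cytosolic ribosome genes 78 rose and none fell, with a median of 0.84. Of 11 electron carrier genes 2 rose and 7 fell (median -0.61), among them Etfa, which feeds electrons from fatty acid oxidation into the chain, with 92.9 ± 10.1 CPM in tumours (SD, n = 8) and 193 ± 24 CPM in colitis (SD, n = 10, edgeR adjusted p = 1.02e-09). Of 17 citrate cycle genes 2 rose and 10 fell, among them Suclg2, a subunit of succinyl-CoA synthetase (-1.37, adjusted p = 3.62e-10). Near those shares, the outer membrane and import list held 7 that rose and 8 that fell of 19, and the assembly factors of complexes II to V 12 and 15 of 38. Genes of mitochondrial DNA transcription and replication held 10 that rose and 4 that fell of 19. Among 11 regulators of mitochondrial biogenesis 5 rose and 5 fell, and Ppargc1b, a coactivator, had 6.14 ± 2.90 CPM in tumours and 33.9 ± 6.4 CPM in colitis (-2.55, adjusted p = 1.89e-12).

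Tissue makeup also differed between tumours and colitis. Smooth muscle markers (6 of 6) summed to 60.2 to 668 CPM in tumours against 1363 to 4797 CPM in colitis, adipocyte markers (7 of 7) to 7.90 to 13.2 CPM in tumours against 61.5 to 231 CPM in colitis, and squamous epithelium markers (6 of 6) to 71.8 to 769 CPM in tumours against 4.50 to 10.1 CPM in colitis. None of these sums overlapped, but not every marker followed its sum. Of the squamous markers, Krt14 (42.5 to 365 CPM in tumours against 0.241 to 2.46 CPM in colitis) and Krt13 did not overlap. Krt5, Trp63 and Krt10 overlapped, Krt10 with 2.73 to 4.07 CPM in tumours against 3.14 to 5.77 CPM in colitis. Krt1 was at most 0.286 CPM. The adipocyte marker Cidea overlapped, with 0.503 to 1.88 CPM in tumours against 0.126 to 0.811 CPM in colitis. Ucp1 was at most 0.0565 CPM. Epithelial marker sums overlapped, with 8893 to 16083 CPM in tumours against 8495 to 12064 CPM in colitis, of which Krt8 gave 3926 to 9882 CPM in tumours against 3511 to 5597 CPM in colitis. Among the 8 epithelial markers, 5 did not overlap between the tissues. Cdx2 spanned 12.0 to 90.3 CPM in tumours against 255 to 371 CPM in colitis, Cdx1 47.4 to 218 CPM in tumours against 231 to 358 CPM in colitis, Krt20 256 to 861 CPM in tumours against 943 to 1703 CPM in colitis and Vil1 406 to 713 CPM in tumours against 721 to 1027 CPM in colitis. Krt18 was higher, with 855 to 1480 CPM in tumours against 270 to 462 CPM in colitis. The part of tissue makeup in the tumour values was not tested.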

How the data were processed

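Poly(A) RNA of 18 libraries was made with a non-directional kit and sequenced in paired reads of 150 bases, per the labels' protocols. Trim Galore 0.6.4, HISAT2 2.0.5 and featureCounts 2.0.0 are named in the submitters' processing notes, and for the build of the genome nothing was given in the sources used here. The authors deposited whole-number counts and FPKM per gene in 3 tables, which were joined by gene identifier. FPKM served for levels between genes and counts for every test. Without strand, reads of a gene and of an antisense partner cannot be told apart, and how reads with several matches were counted was not stated in those sources.

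Counts were tested with the quasi-likelihood test of edgeR 4.0.16 (limma 3.58.1, R 4.3.3), with TMM scaling, edgeR's default expression filter (minimum count 10), group means and robust estimation. Each tissue was fitted with its 4 groups, and tumours against colitis with all 8. P-values were adjusted over all genes tested (Benjamini-Hochberg), with 0.05 as the threshold. The test was also run on simulated data with the same dispersion for every gene, which cannot show how it performs at the spread of these libraries. DESeq2 1.42.0, 1 library left out at a time, a replicate block and other filters and scalings were the alternatives. Nothing in the labels says that libraries of a group come from separate mice, so p-values measure only the spread between these samples, which may be technical. Totals of 16621611 to 23776174 counts limit precision for genes with few counts, and floors of 3 counts cover counting error only. Copies were found with BLAST 2.17.0 on GENCODE M21 transcripts. Python 3.11.15, numpy 2.4.6, pandas 2.3.3 and matplotlib 3.10.9 were used for summaries and plots. The genes named by rule were all mitochondrial genes, 1 nuclear subunit per complex, the isoform genes, the 5 largest rises and falls per comparison among called nuclear genes with a mean log2 CPM of at least 1, the 5 smallest p for the difference between lines, and up to 3 called genes per related list. Other genes named were chosen after their values were seen. The members, the lists and the tests were chosen with earlier results of these data known.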

Additional observations from a re-analysis of the deposited data

Results flagged for a closer look

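The KO effect differed between the Il1f9 and the Il1f5 line of colitis in 78 of 90 nuclear genes, by the interaction test of edgeR at an adjusted p under 0.05. The 5 with the smallest p had differences (Il1f9 effect minus Il1f5 effect, log2) of 1.07 for Uqcr10, 0.88 for Cox7a2, 0.90 for Ndufb9, 1.06 for Ndufv2 and 0.99 for Ndufab1. The mitochondrial gene mt-Nd5 differed the other way, at -0.51 (edgeR adjusted p = 0.0431). These differences take the Il1f5 labels as given, and counts of Il1f5 run against them. With the Il1f5 KO and WT labels turned, 37 of 90 nuclear genes passed, all higher. The difference was then 0.84 for Uqcr10, 0.77 for Ndufb9, 0.62 for Ndufv2 and 0.57 for Ndufab1, which passed, and 0.29 for Cox7a2 (edgeR adjusted p = 0.149), and mt-Nd5 did not pass.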

How the results depend on the processing

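Of the named genes that were called, none reversed its direction under the alternatives run. Counts of called genes were compared by size only. In the colitis Il1f5 line the nuclear calls were 2 higher and 4 lower with all libraries, and 1 higher and 0 lower without KO replicate 2. With 1 library left out at a time, the nuclear genes called numbered 0 to 20 in the colitis Il1f5 line (6 with all libraries), 39 to 77 in the colitis Il1f9 line (78), 58 to 64 for tumours against colitis (62), 50 to 81 for the difference between lines in colitis (78) and 0 to 0 in either tumour line. Mitochondrial genes called numbered 0 to 2 in the colitis Il1f5 line, 0 to 0 in the colitis Il1f9 line, 0 to 1 in the tumour Il1f9 line, 5 to 10 for tumours against colitis, 0 to 1 for the difference between lines in colitis and 0 to 1 for that in tumours. The mitochondrial minus the nuclear median ran from 0.0605 to 0.27 in the colitis Il1f5 line, -0.79 to -0.45 in the colitis Il1f9 line, -0.18 to 0.0001 in the tumour Il1f5 line, -0.52 to 0.45 in the tumour Il1f9 line and -0.25 to -0.06 for tumours against colitis. The difference of log2 ratios of mitochondrial to nuclear counts ran from 0.15 to 0.29, -0.65 to -0.52, -0.31 to -0.23, -0.40 to 0.41 and -0.06 to 0.05 in the same order, and was -0.0332 in the tumour Il1f5 line without mt-Co1 and mt-Cytb. DESeq2 called 12 nuclear genes in the colitis Il1f5 line, 22 in the tumour Il1f5 line and 1 for the difference between lines in tumours, and 2 mitochondrial genes in the colitis Il1f9 line. Without a filter on low counts, the nuclear calls were 10 in the colitis Il1f5 line, 29 in the tumour Il1f5 line and 3 for the difference between lines in tumours, and the mitochondrial calls were 1 in the colitis Il1f9 line, 3 in the tumour Il1f5 line, 1 in the tumour Il1f9 line and 2 for the difference in tumours. A fit of the tumour Il1f5 groups alone called 9 nuclear and 1 mitochondrial genes. KO and WT libraries of the same replicate number did not deviate alike from their group means (correlations of deviations of -0.291 to 0.00391). In groups of 2 libraries the deviations mirror each other, so these values cannot tell whether libraries were paired in another order. With the replicate number as a block, 3 nuclear genes were called in the colitis Il1f5 line, 65 in the colitis Il1f9 line and 68 for the difference between lines in colitis, where no mitochondrial gene passed. Crossed numbers as a block, chosen after seeing the data, called 11 nuclear genes in the colitis Il1f5 line and 0 mitochondrial genes for the difference in colitis. With the Il1f5 KO and WT labels turned, also chosen after seeing the data, 37 nuclear and 0 mitochondrial genes were called for the difference between lines in colitis, and 0 of either in tumours. The lists of cytosolic ribosomal genes and of genes by length were also chosen after seeing the data. Of the named genes called, 6 of 6 in the colitis Il1f5 line, 5 of 10 in the colitis Il1f9 line, 3 of 22 for tumours against colitis and 1 of 5 for the difference between lines lost the call in at least 1 alternative. The cause was not tested.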
